A study of Mus musculus with 37 samples.

Results

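The genes followed here encode the machinery with which a bone-resorbing cell pumps acid: the subunits of the vacuolar-type proton pump (V-ATPase), its accessory proteins, the chloride/proton exchangers of endosomes and lysosomes, the proteins that supply protons and chloride, and an adaptor for lysosome traffic. They were chosen by name: every gene whose symbol begins with Atp6v or Atp6ap, together with Tcirg1, Clcn3, Clcn4, Clcn5, Clcn6, Clcn7, Ostm1, Car2, Slc4a2 and Plekhm1. This gave 36 of the 23170 genes listed, of which 29 had enough counts to be tested. They comprised 13 subunits of V1, 10 of V0, 3 accessory genes, 6 chloride genes (Ostm1 included), Car2 and Slc4a2 for supply, Plekhm1 for traffic, and Atp6v1fnb, which the name prefix caught and to which no role is given here.

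The V-ATPase is a rotary pump in which the cytosolic V1 sector hydrolyses ATP and the membrane-embedded V0 sector carries protons across the membrane. In osteoclasts the pump is inserted into the ruffled border, the membrane that faces bone, where the acid it secretes dissolves mineral; chloride follows through Clcn7 and its partner Ostm1, carbonic anhydrase 2 (Car2) makes the protons inside the cell, and the exchanger Slc4a2 removes bicarbonate and brings in chloride. Loss of Tcirg1, Clcn7, Ostm1, Car2, Slc4a2 or Plekhm1 is a known cause of osteopetrosis, a failure of bone resorption, in humans or in mice.

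RNA came from mouse bone-marrow-derived macrophages, either wild type (WT) or Arid1a knockout (KO), at day 0, day 2 and day 4 of osteoclast differentiation. Arid1a codes for a member of BAF, a complex that remodels chromatin. The labels used here give neither the allele, any Cre driver, the strain nor the animals' age, nor which factors the medium held, and they do not say whether the 2 libraries of a group came from separate animals or cultures, so the p-values may measure technical spread only. Each of the 6 groups held 2 libraries, 12 in all, with total counts from 16282164 to 18608353 per library.

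Arid1a itself was read first, as a check of the labels. Its level in the WT libraries was 242 and 197 CPM (counts scaled to a common library size) at day 0, 169 and 175 at day 2, and 164 and 135 at day 4. In the KO libraries it was 94.6 and 104, then 118 and 117, then 84.7 and 98.0 CPM. The groups did not overlap at any day, but the transcript was not lost: the log2 difference of KO from WT was -1.15 ± 0.14 (SE), -0.54 ± 0.14 and -0.71 ± 0.14 at days 0, 2 and 4 (adjusted p = 0.0141, 0.0613 and 0.00793). Which exons the knockout removes is not given in the labels, so a gene-level count cannot show how complete it was.

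Cell type markers moved with the groups. The 9 osteoclast markers summed to between 110 and 111 CPM in WT at day 0, 2395 to 2689 at day 2 and 14785 to 19118 at day 4, against 149 to 185, 199 to 224 and 1627 to 4294 in KO. The 9 macrophage markers ran the other way, from 50668 to 55187 down to 2664 to 2781 CPM in WT and from 11943 to 12903 down to 2998 to 4699 in KO. The 9 stromal and osteoblast markers lay between 206 and 4609 CPM in WT and between 28.7 and 3448 in KO, and differed more than 10-fold between the 2 WT libraries of day 0 and between the 2 KO libraries of day 4. The 5 megakaryocyte markers lay at 11.9 to 15.6 CPM in WT and 86.5 to 89.0 in KO at day 4, and at 169 to 826 at the earlier days in either genotype. Markers of neutrophils, B cells, T and NK cells, erythroid cells, mast cells and dendritic cells stayed at or below 20.1 CPM per list, with Ly6g, Pax5, Hbb-bt, Cpa3, Fcer1a, Tpsb2 and Mcpt4 at 0 in every library. The 2 KO libraries of day 4 stood furthest apart: 16.7% of all genes with counts differed over 2-fold between them, against 7.06% to 15.4% in the other groups, and replicate 1 held the higher osteoclast marker sum. The part these markers play in the results was not tested. In bulk RNA, fewer cells of a type and less RNA per cell cannot be told apart.

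Of the 36 genes, 7 were too low to test. Atp6v1fnb had 0 counts in all libraries; a count of 0 allows up to 3 counts, which is 0.161 to 0.184 CPM before TMM scaling, for counting error only. Atp6v1b1, Atp6v1g3 and Atp6ap1l had 1 count each over the 12 libraries, Atp6v1e2 had 2, Atp6v0a4 6 and Atp6v1c2 7. Atp6v1b1 and Atp6v0a4 encode the isoforms known from acid-secreting cells of the kidney. The pump genes that were read in these cells were therefore mainly the isoforms found in most tissues, plus Tcirg1 and Atp6v0d2, which are known for high levels in osteoclasts.

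The summed level of the pump genes was higher at day 4 than at day 0, by more in WT than in KO. On the TPM scale, which corrects for transcript length and so lets genes be added, the 23 V1 and V0 genes summed to 3826 and 3496 TPM in the WT libraries of day 0, 4895 and 4727 at day 2, and 9942 and 11576 at day 4. In KO the sums were 3638 and 3492 TPM at day 0, 3452 and 3412 at day 2, and 5836 and 4573 at day 4. The ranges of WT and KO overlapped at day 0 and lay apart at days 2 and 4, and the KO libraries of day 2 lay below those of day 0. As ratios of group means, the day 4 sum was 2.94 times that of day 0 in WT and 1.46 times in KO, and WT stood 1.03, 1.40 and 2.07 times as high as KO at days 0, 2 and 4. For V1 and V0 alone the ratios were 3.13 and 2.77 in WT and 1.53 and 1.41 in KO. No test was made on these sums.

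**Figure D1:**
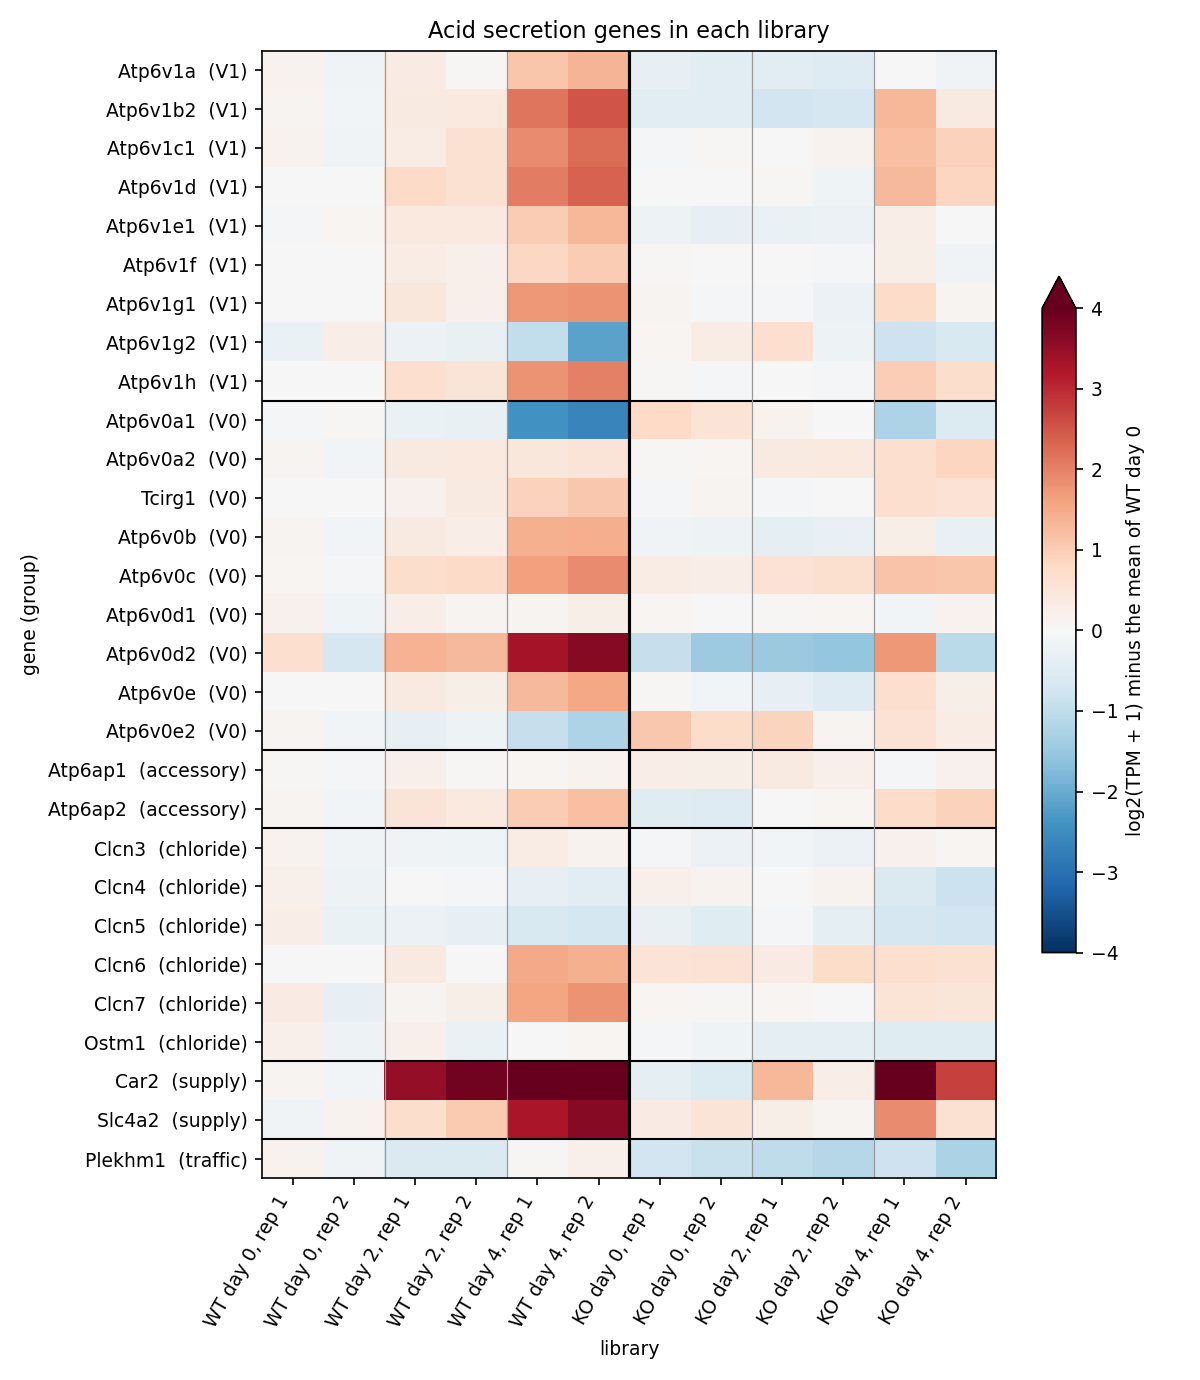
Heat map of the 29 tested genes (rows, grouped by role) in the 12 libraries (columns); colour gives log2(TPM + 1) minus the mean of the 2 WT libraries of day 0 and saturates at 4. The red block in the WT day 4 columns covers most V1 and V0 rows, with Atp6v0a1, Atp6v0e2 and Atp6v1g2 in blue; in KO at day 4, Car2, Slc4a2, Atp6v0d2 and Atp6v1b2 are redder in replicate 1 than in replicate 2.

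Gene by gene, with a call meaning an adjusted p under 0.05 in edgeR over all 12774 genes tested, most of the WT change came after day 2. From day 0 to day 2 in WT, 4 genes rose (Car2, Atp6v0c, Atp6v1d and Atp6v1h) and Plekhm1 fell, 5 of 29, where 17.3% of all genes were called (8.06% upward and 9.25% downward). Each of those 5 calls was lost when at least 1 of the 4 libraries compared was left out, and all 5 when either WT library of day 2 was left out. From day 2 to day 4 in WT, 18 genes rose and 5 fell, where 51.8% of all genes were called (27.4% upward and 24.4% downward); 16 of the 23 were called with each library left out in turn, the others being Atp6ap2, Atp6v0e2, Atp6v1g2, Clcn3, Clcn4, Clcn5 and Plekhm1. From day 0 to day 4 again 18 rose and 5 fell, where 56.8% of all genes were called, 29.1% upward and 27.6% downward; the median log2 change was 1.03 over the 29 genes and -0.04 over all genes. Of those 23 calls, 21 held with each library left out, the others being Clcn4 (without WT day 4 replicate 2) and Atp6v0d2 (without WT day 0 replicate 2).

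In KO, none of the 29 genes was called between day 0 and day 2 by edgeR, where 4.74% of all genes were. Of the 29, 4 had an unadjusted p under 0.05, and DESeq2 called 3 (Atp6ap2, Atp6v0c and Car2). The matching shares of all genes are not given here for these counts. From day 2 to day 4, 10 rose and 3 fell, where 42.7% of all genes were called (22.1% upward and 20.6% downward). On the TPM scale with limma, that split was 14 and 2. The calls over all genes leaned upward on that scale too: 3373 rose and 2065 fell at a pseudocount of 1. That is 62.0% of calls upward, against 51.8% in the edgeR fit. From day 0 to day 4, 10 rose and 3 fell, where 44.6% of all genes were called (23.3% upward and 21.3% downward), with a median log2 change of 0.31. With each library left out in turn, 6 of the 13 calls against day 2 and 9 of the 13 against day 0 held; Atp6v1b2, Clcn5, Slc4a2 and Tcirg1 were those that did not against day 0. Against day 0 there were 11 calls when KO day 4 replicate 1 was dropped and 15 when replicate 2 was. The 10 KO rises included 9 of the 18 WT rises (50% of the WT list and 90% of the KO list): Atp6ap2, Atp6v0c, Atp6v1b2, Atp6v1c1, Atp6v1d, Atp6v1h, Car2, Slc4a2 and Tcirg1. The tenth was Atp6v0a2. All 3 KO falls, Atp6v0a1, Clcn4 and Clcn5, were among the 5 WT falls. The matching overlap over all genes was not counted, so these shared calls cannot be set against it.

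KO against WT gave few calls early and many at day 4. At day 0 only Plekhm1 was called, lower in KO, where 1.58% of all genes were called, 0.814% as lower and 0.767% as higher. An unadjusted p under 0.05 was found for 7 of the 29, with no share of all genes at that cut given here. At day 2 edgeR called none of the 29, where 4.52% of all genes were called. Of the 29, 14 had an unadjusted p under 0.05 and DESeq2 called 10. The matching shares of all genes are not given here, so these counts cannot be set against them. At day 4, 17 genes were lower and 2 higher in KO, where 25.6% of all genes were called, 11.1% as lower and 14.5% as higher. The median log2 difference at day 4 was -0.83 over the 29 genes and -0.03 over all genes. The WT and KO libraries of day 4 did not overlap for 26 of the 29, against 66.5% of all genes.

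Those 19 calls at day 4 draw their estimate of spread from all 12 libraries. With only the 4 day 4 libraries fitted, none of the 29 was called by edgeR and the called genes in the whole table fell from 3271 to 5, although the log2 differences barely moved. Leaving out 1 library at a time gave 12 to 21 calls (21 when KO day 4 replicate 1 was dropped, 16 when replicate 2 was), with 12 of the 19 kept each time. Atp6v0d2, Tcirg1 and Clcn6 each lost the call in 3 of these fits, those that left out WT day 4 replicate 1, WT day 4 replicate 2 or KO day 4 replicate 2; Atp6v1b2, Atp6v1c1, Atp6v0c and Clcn7 lost it when WT day 4 replicate 2 was left out.

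**Figure D2:**
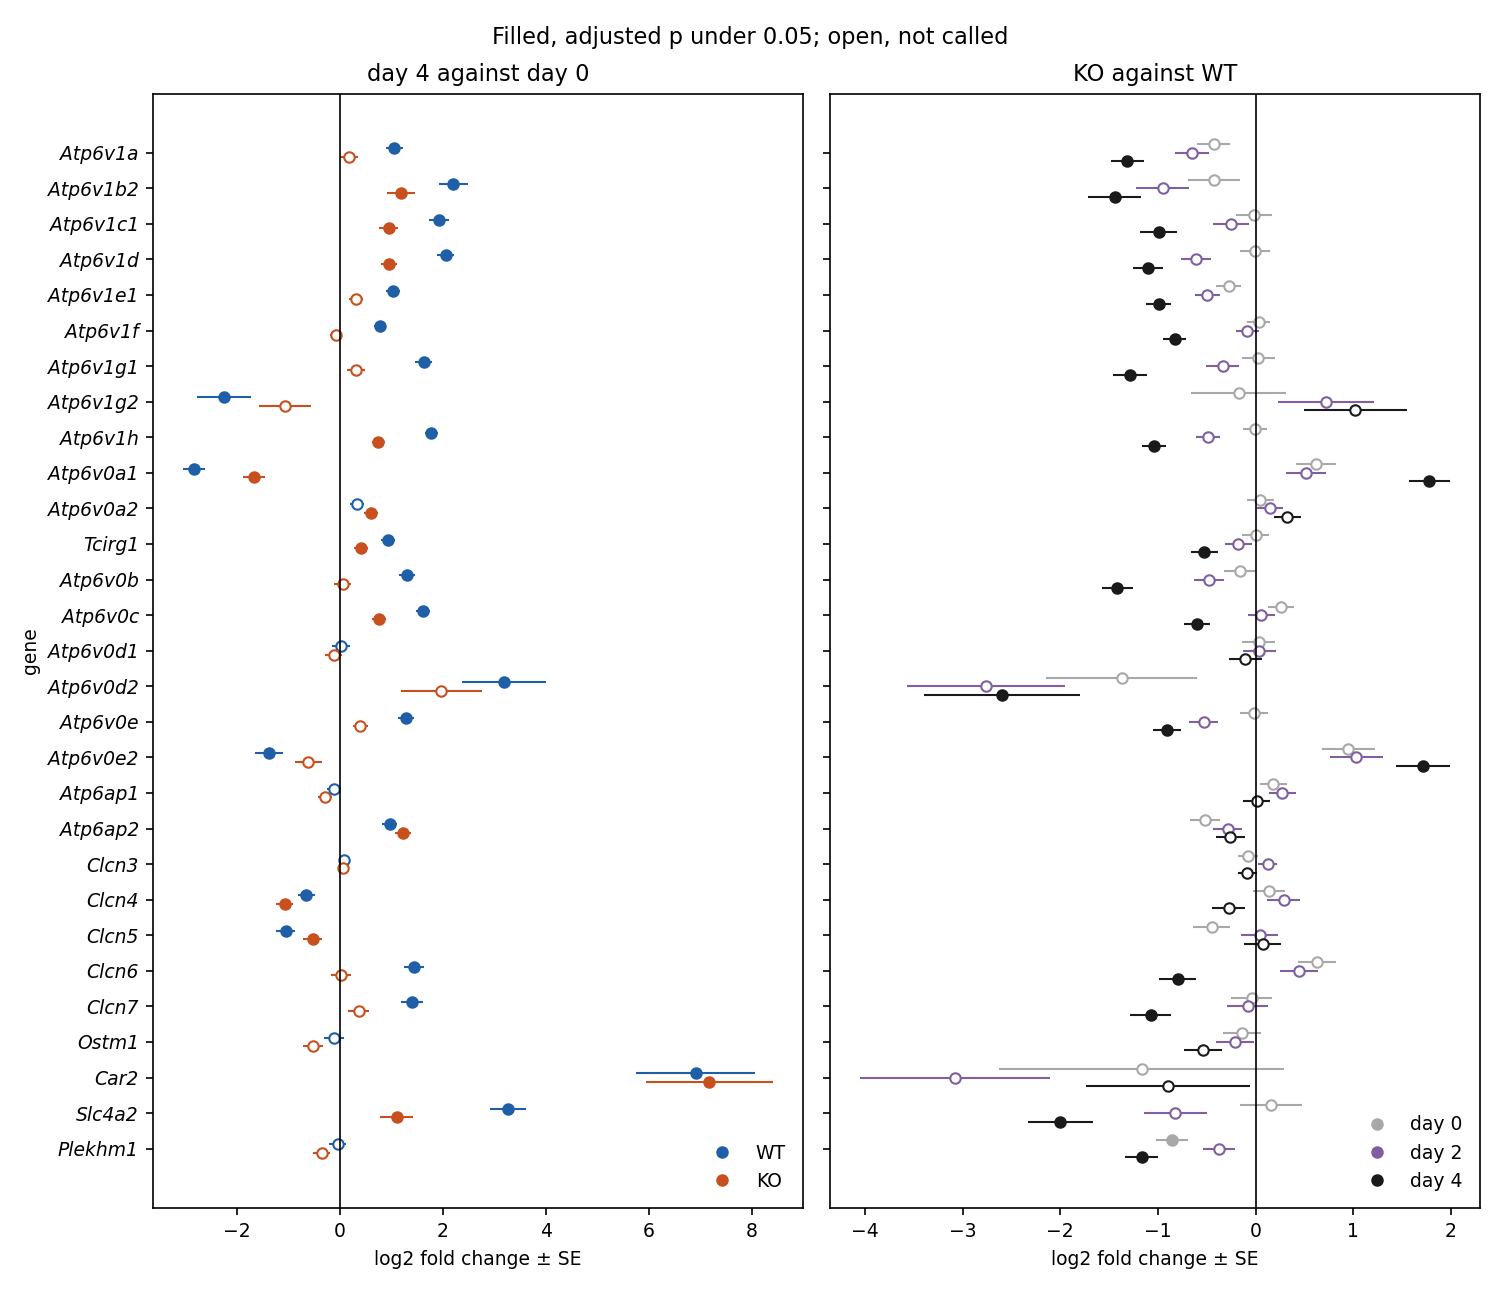
Log2 fold change ± SE of the 29 tested genes from edgeR, left for day 4 against day 0 in WT and in KO, right for KO against WT at days 0, 2 and 4; filled points have an adjusted p under 0.05. On the left most blue points (WT) lie further from 0 than the orange points (KO), with Car2 near 7 in both; on the right the black points (day 4) lie left of 0 for 17 filled genes and right of 0 for Atp6v0a1 and Atp6v0e2.

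In V1, the sector that hydrolyses ATP, nearly every tested gene moved the same way. Of its 9 tested genes, 8 rose and 1 (Atp6v1g2) fell in WT from day 0 to day 4, and the same 8 were lower in KO at day 4. At day 2 the edgeR fit of all libraries called no V1 gene. DESeq2 called Atp6v1a, Atp6v1b2, Atp6v1d, Atp6v1e1 and Atp6v1h lower in KO at that day (-0.98 to -0.52, adjusted p from 0.00488 to 0.00689). It did not call Atp6v1c1, Atp6v1f, Atp6v1g1 or Atp6v1g2, and its share of all genes called is not given here. Atp6v1a encodes the catalytic subunit A, which hydrolyses ATP. It read 808 and 600 CPM in WT at day 0, 799 and 674 at day 2 and 1324 and 1604 at day 4. In KO it read 515 and 532, then 462 and 475, then 629 and 550 CPM. The KO libraries of day 4 lay inside the range of WT day 0 or below it. The log2 change from day 0 to day 4 was 1.06 ± 0.17 in WT (adjusted p = 0.000809) and 0.17 ± 0.17 in KO (adjusted p = 0.43), and KO was lower by -1.31 ± 0.17 at day 4 (adjusted p = 0.00164).

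Atp6v1b2 encodes subunit B, which also binds actin filaments. Its level in WT was 449 and 360 CPM at day 0, 483 and 483 at day 2, and 1596 and 2117 at day 4. In KO it was 293 and 309, then 234 and 266, then 889 and 477 CPM, so the KO libraries of day 4 differed 1.86-fold and both lay below WT. It rose by 2.20 ± 0.28 log2 units in WT and by 1.18 ± 0.27 in KO (adjusted p = 0.000211 and 0.00759). Without KO day 4 replicate 1 the KO rise was 0.67 and still called; without KO day 0 replicate 1 it was 1.14 and not called (adjusted p = 0.0505). The difference of KO from WT at day 4 was -1.44 ± 0.27 (adjusted p = 0.0066), and -1.22 (adjusted p = 0.054) without WT day 4 replicate 2.

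The stalk and regulatory subunits followed. Atp6v1d, part of the central rotor, rose from 91.8 and 88.3 CPM to 329 and 418 in WT, a log2 change of 2.05 ± 0.16, and from 86.5 and 93.2 to 194 and 154 in KO, a change of 0.95 ± 0.16. Atp6v1h, needed for the pump to couple ATP use to transport, rose by 1.77 ± 0.13 in WT (81.2 and 74.0 to 243 and 287 CPM) and by 0.74 ± 0.12 in KO (78.3 and 76.0 to 138 and 120 CPM). Atp6v1c1, which governs reversible assembly of V1 on V0, rose by 1.92 ± 0.19 in WT and 0.95 ± 0.19 in KO. For these genes both KO libraries of day 4 lay above every KO library of day 0 and below both WT libraries of day 4.

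Another 4 V1 genes rose in WT without a call in KO. Atp6v1g1, of the peripheral stalk, went from 142 and 135 to 414 and 438 CPM in WT and from 144 and 138 to 208 and 142 CPM in KO, with log2 changes of 1.62 ± 0.17 and 0.31 ± 0.17 (adjusted p = 0.166 in KO). Atp6v1f changed by 0.77 ± 0.12 in WT and -0.09 ± 0.12 in KO, and Atp6v1e1 by 1.03 ± 0.13 and 0.31 ± 0.13, with Atp6v1a as above. On the TPM scale limma called the KO rise of Atp6v1e1 (0.43 at a pseudocount of 0.1, adjusted p = 0.0308). Leaving out KO day 4 replicate 2 gave Atp6v1g1 a KO change of 0.56 that was called. Atp6v1g2, an isoform best known from brain, lay at only 3.08 and 3.37 CPM in WT at day 0 and at 0.978 and 0.359 at day 4, a fall of 2.26 on the log2 scale (SE 0.52).

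In V0 the isoforms of 1 position moved apart. Subunit a, the part that forms the proton channels and directs the pump to a membrane, is encoded by Tcirg1 (the a3 isoform), Atp6v0a1, Atp6v0a2 and Atp6v0a4. Tcirg1 read 471 and 398 CPM in WT at day 0, 476 and 509 at day 2 and 777 and 881 at day 4; in KO it read 392 and 476, 411 and 459, and 582 and 569. It overlapped between genotypes at day 0 and not at days 2 and 4, with no call at day 2. Its log2 change from day 0 to day 4 was 0.93 ± 0.14 in WT and 0.41 ± 0.14 in KO (adjusted p = 0.000521 and 0.0418), and KO stood at -0.53 ± 0.14 against WT at day 4 (adjusted p = 0.0258). The call of the KO rise was lost without KO day 0 replicate 1 (change of 0.27) and without either KO day 4 library, and that of the day 4 difference in the 3 fits named above.

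Atp6v0a1 went the opposite way in both genotypes. It fell from 206 and 217 CPM through 158 and 149 to 29.5 and 29.8 in WT, and from 341 and 307 through 232 and 206 to 76.2 and 128 in KO. The KO libraries were the higher ones at every day with no overlap. The log2 change from day 0 to day 4 was -2.83 ± 0.22 in WT (adjusted p = 2.06e-05) and -1.67 ± 0.21 in KO (adjusted p = 0.000425). KO exceeded WT by 0.62 ± 0.20 at day 0 and 0.52 ± 0.20 at day 2, neither called (adjusted p = 0.2 and 0.161, in that order), and by 1.78 ± 0.21 at day 4 (adjusted p = 0.00121). Atp6v0a2, the Golgi-associated isoform, lay between 50.7 and 98.8 CPM in all libraries. Its change from day 0 to day 4 was 0.61 ± 0.13 in KO, which was called, and 0.33 ± 0.13 in WT, which was not (adjusted p = 0.0627 by edgeR). The WT rise was called by limma on the TPM scale (0.49 at a pseudocount of 0.1, adjusted p = 0.0118), with the replicate block within each genotype (adjusted p = 0.0477) and without WT day 0 replicate 1 (0.49, adjusted p = 0.0232), and the KO call was lost when only the libraries compared were fitted (adjusted p = 0.0528).

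As a share of the TPM of position a, Tcirg1 made up 73.5% ± 0.67 (SD, n = 2) in WT at day 0, 79.0% ± 1.7 at day 2 and 94.1% ± 0.57 at day 4. In KO its share was 64.9% ± 4.5, 71.1% ± 1.6 and 85.4% ± 3.6. The share of Atp6v0a1 went from 22.5% ± 1.2 at day 0 to 2.38% ± 0.43 at day 4 in WT, where Atp6v0a2 then held 3.57% ± 0.14, and from 31.4% ± 4.5 to 9.30% ± 3.1 in KO. The Tcirg1 share was higher in every library of day 4 than in any library of day 0 of its genotype, and at each day both KO libraries had a lower Tcirg1 share than both WT libraries. No test was made on the shares.

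Position d has 2 isoform genes. Atp6v0d1, the isoform found in most tissues, lay between 121 and 169 CPM in all 12 libraries, with no call in any comparison. Atp6v0d2, which osteoclasts make in quantity and which mice need for efficient fusion of osteoclast precursors, read 169 and 61.0 CPM in WT at day 0, 250 and 232 at day 2, and 921 and 1170 at day 4. In KO it read 51.6 and 37.1 CPM, then 35.3 and 35.8, then 302 and 44.2. Only 1 of the 2 KO libraries of day 4 lay above the day 0 values of WT, and both lay below the WT libraries of day 4.

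The tests on Atp6v0d2 reflected that spread. Its log2 change from day 0 to day 4 was 3.19 ± 0.82 in WT (adjusted p = 0.0106), or 2.63 (adjusted p = 0.0585) without WT day 0 replicate 2, and 1.96 ± 0.79 in KO (adjusted p = 0.0748), or 2.76 (adjusted p = 0.00461) without KO day 4 replicate 2. KO differed from WT by -1.37 ± 0.77 at day 0 and -2.76 ± 0.81 at day 2 (adjusted p = 0.486 and 0.0922). The day 2 difference was called by DESeq2 (adjusted p = 0.0110) and by edgeR with only the day 2 libraries fitted (adjusted p = 0.00247). At day 4 the difference was -2.60 ± 0.80 (adjusted p = 0.047), and -4.56 without KO day 4 replicate 1. Its call was lost when WT day 4 replicate 1 (-2.76), WT day 4 replicate 2 (-2.41) or KO day 4 replicate 2 (-1.79) was left out, and with no filter on low counts (adjusted p = 0.0833).

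The share of Atp6v0d2 in the TPM of position d followed the same course: 29.7% ± 10.2, 48.2% ± 0.68 and 80.6% ± 1.2 in WT (SD, n = 2), against 15.0% ± 2.9, 11.9% ± 0.50 and 37.3% ± 31.9 in KO. The KO value of day 4 averages 59.9% in replicate 1 and 14.7% in replicate 2. The osteoclast markers differed between those libraries in the same direction, 4294 CPM in one and 1627 in the other, and the part this plays in the result was not tested.

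**Figure D3:**
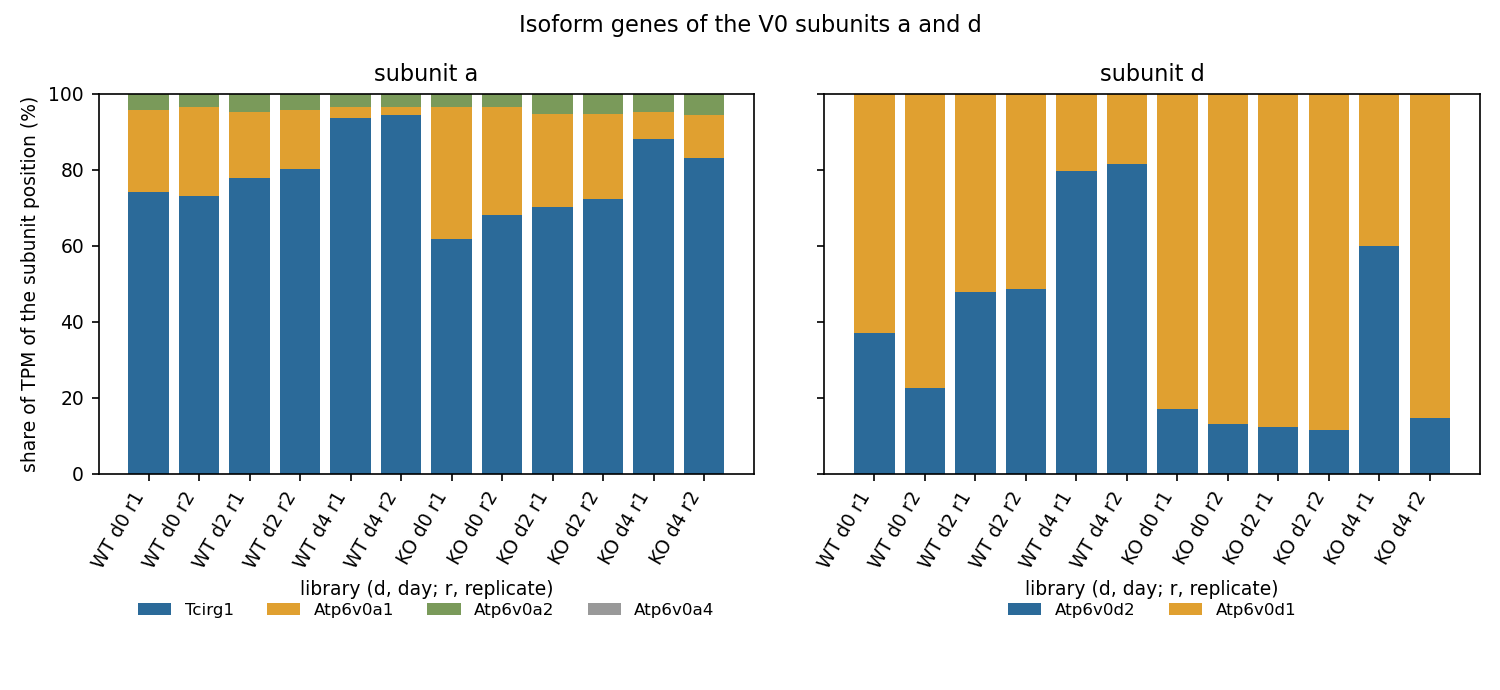
Share of the summed TPM of V0 subunit a (left) and subunit d (right) that each isoform gene contributed, in percent, 1 bar per library. The Tcirg1 part grows to 94.1% on average in WT at day 4 and 85.4% in KO; the Atp6v0d2 part reaches 79.7% and 81.5% in the WT day 4 libraries and 59.9% and 14.7% in the KO day 4 libraries.

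The proton ring and the small membrane subunits also differed by gene. Atp6v0c, the ring subunit c that carries protons, had the highest TPM of all the genes studied in either genotype at day 4: 1505 and 1774 TPM in WT, 1058 and 1041 in KO. In CPM it rose from 312 and 256 to 790 and 950 in WT and from 339 and 342 to 559 and 586 in KO, log2 changes of 1.61 ± 0.14 and 0.75 ± 0.14. RefSeq lists the pseudogenes Atp6v0c-ps1 and Atp6v0c-ps2, which the count table does not list, so its reads may include theirs and its level is uncertain. Atp6v0b, the ring subunit c'', rose only in WT as tested: 227 and 185 to 496 and 518 CPM (1.3 ± 0.16), against 182 and 185 to 219 and 161 CPM in KO (0.05 ± 0.16, adjusted p = 0.818). At day 4 it differed by -1.42 ± 0.16 between KO and WT (adjusted p = 0.00101).

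Subunit e repeated the pattern of a main and a minor isoform. Atp6v0e changed by 1.28 ± 0.15 log2 units in WT (127 and 115 to 266 and 323 CPM) and by 0.39 ± 0.14 in KO (122 and 117 to 176 and 138 CPM; adjusted p = 0.0547), and was called in KO without KO day 4 replicate 2 (0.56) and on the TPM scale (0.49). Atp6v0e2 lay far lower. It fell from 12.2 and 9.56 to 4.63 and 3.69 CPM in WT, a log2 change of -1.38 ± 0.28, and read 23.1 and 18.8 at day 0 and 14.6 and 12.7 at day 4 in KO. KO was higher at day 4 by 1.71 ± 0.28 (adjusted p = 0.00354).

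Neither Atp6ap2 nor Atp6ap1 was called between the genotypes at day 4. Atp6ap2, the (pro)renin receptor, which takes part in pump assembly, rose from 318 and 258 to 516 and 605 CPM in WT and from 198 and 204 to 425 and 511 in KO. The log2 changes were 0.96 ± 0.15 and 1.22 ± 0.15, both called, and KO differed from WT at day 4 by -0.26 ± 0.15 (adjusted p = 0.242). Atp6ap1, an accessory protein of V0, lay between 396 and 568 CPM in all libraries with no call in any comparison of all 12 libraries. Without KO day 4 replicate 2 it was called lower in KO at day 4 than at day 0 (-0.43, adjusted p = 0.0447) and than at day 2 (-0.46, adjusted p = 0.0352).

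Among the chloride genes, Clcn7 and Clcn6 rose and Clcn4 and Clcn5 fell in WT. Clcn7, the lysosomal and ruffled-border chloride/proton exchanger, read 272 and 167 CPM in WT at day 0, 233 and 212 at day 2, and 520 and 637 at day 4. In KO it read 204 and 222, 203 and 217, and 287 and 262. The genotypes overlapped at days 0 and 2 and stood apart at day 4. The log2 change from day 0 to day 4 was 1.40 ± 0.21 in WT and 0.36 ± 0.21 in KO (adjusted p = 0.000544 and 0.185), and the difference at day 4 was -1.08 ± 0.21 (adjusted p = 0.0076). It was -0.92 (adjusted p = 0.0621) without WT day 4 replicate 2. Ostm1, the partner that Clcn7 needs to be stable, was not called at day 4 in the edgeR fit of all libraries: it lay at 101 and 112 CPM in WT and 71.9 and 74.3 in KO (-0.54 ± 0.19, adjusted p = 0.0714), and limma on TPM (adjusted p = 0.0478) and DESeq2 (adjusted p = 0.0491) did call it.

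Clcn6, a late-endosomal exchanger, was nearer to flat in KO: 20.8 and 17.5 CPM rose to 53.1 and 50.7 in WT (1.44 ± 0.20), while KO went from 28.5 and 30.7 to 29.6 and 30 (0.01 ± 0.19, adjusted p = 0.969). Both KO libraries lay above WT at day 0 (0.63 ± 0.20, adjusted p = 0.175) and below at day 4 (-0.80 ± 0.19, adjusted p = 0.0182), and the day 4 call was lost without either WT day 4 library and without KO day 4 replicate 2. Clcn4 and Clcn5, exchangers of endosomes, fell in both genotypes, Clcn4 by 0.66 in WT and 1.08 in KO and Clcn5 by 1.06 and 0.53 on the log2 scale. The Clcn4 fall in WT was 0.42 without WT day 0 replicate 1 and was not called without WT day 4 replicate 2 or on the TPM scale; the Clcn5 fall in WT was 0.70 without WT day 0 replicate 1. The Clcn5 fall in KO was not called when any 1 of the 4 libraries was left out, nor on the TPM scale. Clcn3, also endosomal, lay between 46.4 and 61.0 CPM in all libraries and was called only in WT from day 2 to day 4, a rise of 0.32 ± 0.10 that was lost without any 1 of the 4 libraries.

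The supply genes Car2 and Slc4a2 rose from day 0 to day 4 in both genotypes. Car2, which hydrates carbon dioxide to make protons and bicarbonate, was at 1.11 and 0.718 CPM in WT at day 0, 19.1 and 24 at day 2, and 81.1 and 139 at day 4. In KO it was at 0.475 and 0.322, then 3.69 and 1.36, then 107 and 10.9. Of the KO libraries of day 4, 1 lay between the WT libraries and the other below them, 9.82-fold apart, the widest gap between replicates among the 29 genes. Both rises were called, 6.91 ± 1.15 log2 units in WT (adjusted p = 0.00117) and 7.17 ± 1.24 in KO (adjusted p = 0.00234); the KO rise was 4.74 without KO day 4 replicate 1. The difference at day 4 was -0.90 ± 0.84 and not called (adjusted p = 0.475), but it was -3.34 (adjusted p = 0.00391) without KO day 4 replicate 1, so a single library decided it. At day 2 it was -3.08 ± 0.97 and not called (adjusted p = 0.107). The day 2 difference was called by DESeq2 (-3.12, adjusted p = 0.00241) and by edgeR with only the day 2 libraries fitted (-3.09, adjusted p = 0.0427).

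Slc4a2, the chloride/bicarbonate exchanger, read 55.2 and 60.4 CPM in WT at day 0, 99.5 and 109 at day 2, and 501 and 604 at day 4. In KO it read 60.6 and 68.4, then 62.8 and 55.2, then 193 and 82.9. The genotypes lay next to each other at day 0, apart at day 2 and further apart at day 4. The day 2 difference was not called in the edgeR fit of all libraries. It was called with only the day 2 libraries fitted (-0.84, adjusted p = 0.0283). It rose by 3.26 ± 0.35 log2 units in WT (adjusted p = 9.85e-05) and by 1.10 ± 0.32 in KO (adjusted p = 0.0241). The KO rise was 0.36 without KO day 4 replicate 1 and was then not called, nor without either KO day 0 library or on the TPM scale. The difference at day 4 was -2.0 ± 0.33 (adjusted p = 0.00415), between -2.74 and -1.52 with 1 library left out and called each time.

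Plekhm1, an adaptor that links Rab7 to lysosome fusion and to secretion at the ruffled border, was the 1 member that edgeR called between the genotypes at day 0. DESeq2 also called Atp6ap2 lower in KO at that day (-0.56, adjusted p = 0.0279). For Plekhm1, WT read 291 and 220 CPM at day 0, 158 and 156 at day 2 and 230 and 266 at day 4; KO read 144 and 139, 122 and 119, and 125 and 95.7. No KO library reached any WT library. KO differed from WT by -0.85 ± 0.17, -0.38 ± 0.16 and -1.17 ± 0.17 at days 0, 2 and 4 (adjusted p = 0.0455, 0.198 and 0.00218). The day 0 call was lost without WT day 0 replicate 1 (-0.66), KO day 0 replicate 1 or KO day 0 replicate 2. The WT value dipped at day 2 by -0.71 ± 0.16 and was back near its start at day 4 (-0.04 ± 0.16 against day 0, adjusted p = 0.833); the dip was -0.51 and not called without WT day 0 replicate 1, nor called without either WT day 2 library.

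**Figure D4:**
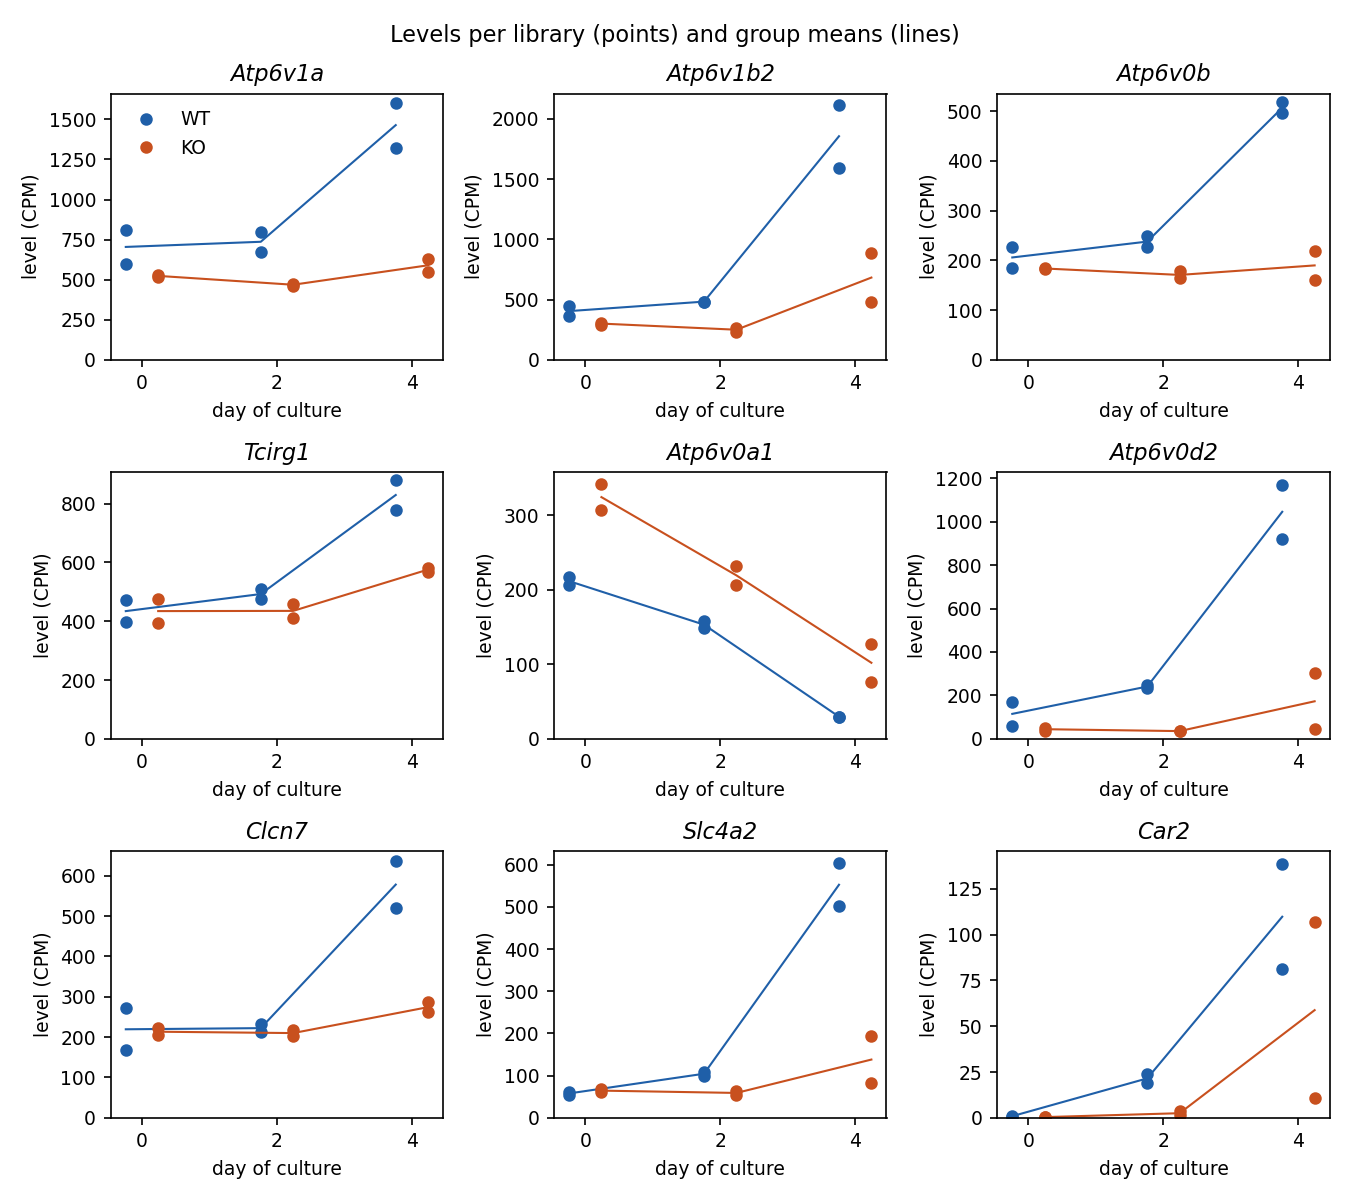
Levels in CPM against day of culture for 9 genes, 1 point per library (blue, WT; orange, KO), with lines through the group means of 2 libraries. WT points lie above KO points at day 4 in each panel except Atp6v0a1, where KO is higher, and Car2, where 1 KO library (107 CPM) lies between the WT libraries (81.1 and 139).

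Whether the KO effect itself changed over time was tested as an interaction. From day 0 to day 2 no member was called by edgeR, where 0.00783% of all genes were. Of the members, 3 had an unadjusted p under 0.05, with no share of all genes at that cut given here, and DESeq2 called 0. From day 0 to day 4, 11 were called, where 8.56% of all genes were called, 5.75% toward higher and 2.82% toward lower values in KO: the difference of KO from WT became more negative for Slc4a2 (-2.16 ± 0.46), Clcn6 (-1.43 ± 0.27), Atp6v1g1 (-1.31 ± 0.24), Atp6v0b (-1.25 ± 0.22), Atp6v1d (-1.10 ± 0.22), Atp6v1h (-1.03 ± 0.17), Atp6v0e, Atp6v0c, Atp6v1f and Atp6v1e1, and more positive for Atp6v0a1 (1.16 ± 0.29; 0.74 without KO day 4 replicate 2, and not called on the TPM scale). The 4 libraries of day 0 enter every such value. Leaving out 1 library gave 0 to 15 calls, 0 without KO day 0 replicate 1, KO day 0 replicate 2 or WT day 4 replicate 2, and 1 call (Clcn6) was made with only the 8 libraries of days 0 and 4 fitted.

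RefSeq promoter windows of the GRCm38.p6 build were found for 28 of the 36 genes, 38 windows in all, and the 250 bases before each start were searched on both strands for 4 short motifs. Without a window, and so not searched, were Atp6v1b2, Atp6v1c1, Atp6v1g1, Atp6v1h, Atp6v0a2, Atp6v0d2, Atp6ap1l and Car2. TCACGTG, the core of the CLEAR element to which the lysosomal regulators Tfeb, Tfe3 and Mitf bind, was present in 5 of 38 windows (13.2%), those of Atp6v0b, Atp6v1a, Clcn4, Clcn6 and Clcn7, and in 3.13% of all 32851 windows. Each of those matches also holds the E-box CACGTG, present in the same 5 genes' windows (13.2%) and in 6.02% of all. The M-box TCATGTG was in 4 windows (10.5%) against 3.25%, and the AP-1 motif TGANTCA in 1 (2.63%) against 6.75%. A match is a description of letters and not of binding. The 150 bases before the start are shown for 4 genes with the CLEAR core that rose in WT and were lower in KO at day 4, and for Atp6v0a1, which went the other way and holds the AP-1 match; they run 5' to 3' on the gene's strand, with matches in capitals.
Atp6v0b: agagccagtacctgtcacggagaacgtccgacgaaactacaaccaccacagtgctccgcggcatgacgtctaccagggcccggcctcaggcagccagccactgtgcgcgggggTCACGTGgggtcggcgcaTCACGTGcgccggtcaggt
Atp6v1a: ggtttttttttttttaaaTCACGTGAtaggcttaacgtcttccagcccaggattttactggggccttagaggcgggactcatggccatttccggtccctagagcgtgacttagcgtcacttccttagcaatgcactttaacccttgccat
Clcn7: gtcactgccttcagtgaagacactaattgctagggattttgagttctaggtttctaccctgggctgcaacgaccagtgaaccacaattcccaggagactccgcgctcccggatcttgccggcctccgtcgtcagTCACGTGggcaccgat
Clcn6: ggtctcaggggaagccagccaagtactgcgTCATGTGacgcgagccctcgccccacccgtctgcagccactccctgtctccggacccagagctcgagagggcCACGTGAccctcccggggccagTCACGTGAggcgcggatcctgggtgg
Atp6v0a1: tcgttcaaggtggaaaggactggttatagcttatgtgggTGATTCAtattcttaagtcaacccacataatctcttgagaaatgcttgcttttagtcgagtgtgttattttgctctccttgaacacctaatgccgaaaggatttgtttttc
They lie at chr4:117887330-117887479 (- strand), chr16:44139260-44139409 (- strand), chr17:25133241-25133390 (+ strand), chr4:148038814-148038963 (- strand) and chr11:101010248-101010397 (+ strand). Atp6v0b holds the CLEAR core at 2 places close to the start, Clcn7 at 1 close to it, Clcn6 at 2 places with an M-box further out, and Atp6v1a at 1 near the far end of the stretch. Clcn4, whose match lies partly outside this length, fell in both genotypes, so the match was found in genes of either direction.

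Of the 4 listed factors of the family that binds such elements, only Mitf, Tfeb and Tfe3 are given here, and they moved in different directions. Mitf, which takes part in osteoclast gene expression, rose from 124 and 102 to 178 and 175 CPM in WT (0.64 ± 0.12) and read 133 and 148 at day 0 and 140 and 124 at day 4 in KO, with KO at -0.42 ± 0.12 against WT at day 4 (adjusted p = 0.0327). Tfeb fell from 57.0 and 41.3 to 15.2 and 17.0 CPM in WT (-1.61 ± 0.18) and from 35.1 and 40.6 to 20.2 and 23.9 in KO (-0.78 ± 0.18). Tfe3 fell as well, by 1.38 in WT and 0.87 in KO on the log2 scale.

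The lists of other genes around the pump gave mixed counts. Of 36 lysosomal enzymes and membrane proteins, 3 rose and 28 fell in WT from day 0 to day 4 (median log2 change -0.82), among them Ctsb, cathepsin B (-2.89 ± 0.21), and Man2b1, a lysosomal mannosidase (-3.47 ± 0.21). At day 4, 16 of the 36 were higher and 4 lower in KO (median 0.47), such as Lipa, lysosomal acid lipase (3.11 ± 0.34), and Ctsd, cathepsin D (2.05 ± 0.23). Most called genes of this list thus moved opposite to the pump genes. Macrophage markers fell over the same days in WT, as given above, and stood higher in KO at day 4, and the part this plays was not tested.

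Of 11 tested genes for V-ATPase assembly and regulation, 5 rose and 4 fell in WT over the 4 days and 2 rose and 4 fell in KO. Vma21, an assembly chaperone of V0, rose in both genotypes: 48.2 and 44.0 to 98.9 and 97.0 CPM in WT (1.09 ± 0.09) and 48.7 and 45.1 to 86.6 and 91.4 in KO (0.92 ± 0.09). Of 13 genes of the Ragulator and Rag GTPases, which sense nutrients at the lysosome together with the pump, 0 rose and 7 fell in WT, and Rragd was lower in KO at day 4 (-1.99 ± 0.44). Of 16 genes for transport of secretory lysosomes, 5 rose and 5 fell in WT; Snx10, a sorting nexin whose loss causes osteopetrosis, rose from 116 and 104 to 520 and 611 CPM in WT (2.36 ± 0.21) and stood at 184 and 119 in KO at day 4 (-1.90 ± 0.21 against WT). Of 15 other bicarbonate, proton and lactate carriers, 4 rose and 6 fell in WT, and 3 were higher and 1 lower in KO at day 4. Of 10 other chloride and lysosomal channels the counts were 2 and 4, then 2 and 1, and of 7 other carbonic anhydrases 2 and 1, then 1 and 1. Among all genes tested, 56.8% were called in either direction from day 0 to day 4 in WT, 44.6% in KO, and 25.6% between the genotypes at day 4.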

How the data were processed

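RNA-seq of 12 libraries was used; 12 ATAC-seq and 13 CUT&Tag samples were not used here. Groups, days and replicate numbers came from the labels. The authors deposited expected counts per gene (whole numbers, used as they stand) and TPM. Per the submitters' processing notes, RSEM 1.3.1, STAR 2.7.3a and Trim Galore 0.6.1 are named besides DESeq2, as are mm9 and mm10, without their roles. Gene models and strand setting are not given in the sources used here, so overlapping genes on opposite strands cannot be told apart. The 36 genes and all gene and marker lists were chosen with earlier results of these data known.

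The main test was the two-sided quasi-likelihood F test of edgeR 4.0.16 (R 4.3.3), with robust dispersions, TMM scaling and a mean for each group, on all 12 libraries. After filterByExpr (minimum count 10), 12774 genes were tested, and p was adjusted over all of them by Benjamini-Hochberg; a call is an adjusted p under 0.05. The SE is the log2 fold change divided by the square root of F. CPM used TMM-scaled library sizes. The common biological coefficient of variation was 0.261. Of 11 comparisons, 3 set KO against WT, 6 took pairs of days within a genotype and 2 tested the change of the KO effect. The code was tested on simulated counts. Alternatives were DESeq2 1.42.0, edgeR with the size factors of DESeq2, all genes without the filter, limma 3.58.1 on log2(TPM + 1) or log2(TPM + 0.1), only the libraries compared, a replicate block, and each library left out; the lone library of a group was then assumed to vary like the other groups. Text names follow a rule: isoforms of 1 subunit position, the role genes, the called members with the largest changes, and up to 3 called genes per other list with the smallest adjusted p.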

Additional observations from a re-analysis of the deposited data

Results flagged for a closer look

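For 11 genes the KO effect differed between day 0 and day 4 by the interaction test (edgeR quasi-likelihood, adjusted p under 0.05), as log2 values of the KO-WT difference at day 4 minus that at day 0. The difference became more negative for Slc4a2 (-2.16), Clcn6 (-1.43), Atp6v1g1 (-1.31), Atp6v0b (-1.25), Atp6v1d (-1.10), Atp6v1h (-1.03), Atp6v0e (-0.89), Atp6v0c (-0.86), Atp6v1f (-0.86) and Atp6v1e1 (-0.72), and more positive for Atp6v0a1 (1.16). None of the 11 was called in every fit that left out 1 library. Groups of 2 libraries are too small for a test of a single sample standing apart.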

How the results depend on the processing

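Counts are members called of 29, and the share of all genes called in the same fit is not set beside them. Against the fit of all 12 libraries, DESeq2 gave 2, 10 and 3 for KO against WT at day 0 and day 2 and KO day 2 against day 0 (1, 0 and 0 by edgeR). For the same comparisons limma on log2(TPM + 0.1) gave 0, 5 and 1, and limma on log2(TPM + 1) gave 6 and 1 for the latter pair. Fitting only the libraries compared gave 0, 8 and 0 for KO against WT at days 0, 2 and 4 (1, 0 and 19 in the fit of all), 3 for WT day 2 against day 0 (5), 1 for KO day 2 against day 0 (0), 5 for KO day 4 against day 2 (13) and 1 for the interaction to day 4 (11); fewer samples then estimate the spread. With 1 library left out the lowest and highest counts were 0 and 2 (KO against WT, day 0), 0 and 0 (day 2), 12 and 21 (day 4), 0 and 2 (WT day 2 against day 0), 16 and 21 (WT day 4 against day 2), 22 and 24 (WT day 4 against day 0), 0 and 0 (KO day 2 against day 0), 8 and 14 (KO day 4 against day 2), 9 and 15 (KO day 4 against day 0), 0 and 0 (interaction to day 2) and 0 and 15 (interaction to day 4). The cause of the other changes was not tested. No called value changed sign under any alternative. Over single genes, 1360 leave-one-out values stayed on their side of the threshold, 129 lost a call and 19 gained one; for the other settings these were 2264, 82 and 90. TPM scaling moved the median log2 change of all genes by over 0.1 in several comparisons, so single changes are relative to it. In WT it went from -0.04 to 0.15 for day 4 against day 0 at a pseudocount of 0.1. At a pseudocount of 1 it went in KO from -0.043 to 0.088 for day 4 against day 2. For KO day 4 against day 0 it went from -0.058 to 0.055, and for KO against WT at day 2 from -0.004 to -0.117. Car2, Atp6v1g2 and Atp6v0e2 rest on few counts at their low end, and 2 libraries per group limit all precision.

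The labels do not say what a replicate number shares. Differences between replicates 1 and 2 correlated across genes with r from 0.11 to 0.27 between days in WT, from 0.39 to 0.53 in KO, and from -0.48 (KO day 2 with WT day 0) to 0.04 (KO day 4 with WT day 2) between the genotypes, at -0.32, -0.05 and -0.06 between WT and KO of days 0, 2 and 4. The replicate block as a fit of all libraries gave 1, 1 and 19 calls for KO against WT at days 0, 2 and 4, 5, 24 and 23 in WT and 0, 13 and 14 in KO for day 2 against 0, 4 against 2 and 4 against 0, and 0 and 9 for the interactions. A replicate block within each genotype, chosen after seeing the data, gave 5, 25 and 24 in WT and 0, 13 and 15 in KO. Crossing the numbers of the KO libraries at day 0, also chosen after seeing the data, gave 1 call for KO against WT.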
